A study of Mus musculus with 8 samples.

Results

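A set of 10 genes of the insulin-like growth factor (IGF) axis were followed in mouse myocardium, taken by gene name from a table of 33249 genes, and all 10 were found. They were the ligand Igf1, the receptors Igf1r and Insr, the receptor substrate Irs1, and the binding proteins Igfbp2, Igfbp3, Igfbp4, Igfbp5, Igfbp6 and Igfbp7. Poly(A) RNA was sequenced from 8 libraries, 2 in each of 4 groups named fl/fl-Sham, fl/fl-MI, CKO-Sham and CKO-MI. All mice carried loxP-flanked Piezo1, a mechanosensitive cation channel gene. CKO mice also carried Myh6-cre/Esr1*, a tamoxifen-inducible Cre driven by the cardiomyocyte promoter of Myh6, and fl/fl mice were littermates without it. Tamoxifen was given at 4 weeks of age to induce deletion, and whether fl/fl mice received it is not given in the sources used here. At 8 weeks of age the left anterior descending artery was tied permanently (MI) or a sham operation was done, and the MI libraries date from day 42. Positions are in GRCm38, where the coordinates of all 10 genes equal those of GENCODE M21. The study asked how loss of cardiomyocyte Piezo1 changes the infarcted heart. Nothing in the labels ties a library to 1 animal or to a pool, so the p-values measure only the spread between these libraries.

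IGF-I is a peptide hormone made by the liver and also locally by fibroblasts, macrophages and other cells. It acts through the receptor tyrosine kinase encoded by Igf1r, which, like the insulin receptor, phosphorylates IRS adaptors and through them activates PI3K and Akt. In heart muscle the pathway is known for physiological growth and for cell survival. The binding proteins are secreted, hold IGFs in the circulation and in the matrix, and either limit or prolong their action. IGFBP7 binds IGFs only weakly and is often grouped apart as an IGFBP-related protein.

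The libraries held 73821747 to 88117573 gene counts, in which about 4 counts stood for 1 read pair, and values are given as CPM, counts scaled by TMM to a common library size. Piezo1, the targeted gene, had 72.2 and 82.0 CPM in fl/fl-Sham, 76.7 and 88.3 in CKO-Sham, 53.5 and 64.8 in fl/fl-MI and 56.3 and 64.6 in CKO-MI. It therefore did not separate the labelled genotypes in these whole-tissue libraries. Non-cardiomyocytes also contribute to such libraries, and why Piezo1 did not differ was not tested. Esr1, whose ligand-binding part is joined to Cre in the transgene, was looked at because its values were already known. CKO-Sham had 5.52 and 7.60 CPM of it and CKO-MI had 707 and 402, while fl/fl-MI 2 had 331 against 6.41 to 8.36 in the other fl/fl libraries. The genotype labels of the CKO-Sham libraries and of fl/fl-MI 2 are thus in doubt, and each genotype below is the genotype as labelled. The library labelled fl/fl-MI 2 also stood apart with the highest sum of 5 atrial markers, 19857 CPM against 135 to 594 in sham and 2547 to 4450 in the other MI libraries. In those other MI libraries nearly all of the sum was Nppa, at 2520 to 4419 CPM. Myl4, Myl7, Sln and Bmp10 did not exceed their highest sham values there. In fl/fl-MI 2 they had 2810, 1157, 310 and 3834 CPM. None of 8 cardiomyocyte markers was at 0 in any library. After MI 3 of them fell, Myl2, Ckm and Tnni3, and 3 rose, and their sum was 16924 CPM in fl/fl-MI 1 and 19571 in CKO-MI 2, against 29015 to 32773 in sham and 31193 and 34573 in the other MI libraries. Of 7 smooth muscle and pericyte markers 3 fell, Rgs5, Kcnj8 and Myh11, and the sum of all 7 went from 1262 to 1392 CPM in sham to 492 to 648 CPM in MI. Most of the sham sum was Rgs5 alone, which had 874.5 to 1102 CPM in sham and 203 to 401 in MI. Acta2, Tagln, Cnn1 and Cspg4 were not called, so the fall of the sum is mainly that of 1 gene. Summed fibroblast markers ranged from 1414 to 1559 CPM in sham and from 2223 to 6426 CPM in MI libraries, and 7 of the 8 rose after MI. Of 7 endothelial markers 6 fell, and their sum went from 1559 to 1864 CPM in sham to 579 to 998 CPM in MI. In whole tissue, fewer cells of a type and less RNA per cell cannot be told apart.

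After MI, 4 of the 9 members that could be tested were higher than in sham, with both genotypes averaged (edgeR quasi-likelihood test, Benjamini-Hochberg adjusted p under 0.05 over 14028 genes). They were Igfbp6, Igfbp4, Insr and Igf1r, and no member was lower. Over all genes tested 40.4% were called, 22% higher and 18.3% lower, so the share of members called in either direction was close to that of genes in general. The even split between higher and lower calls, 54.6% higher, depends on the scaling, and became 89.4% higher on log2(FPKM + 1), where the median of all genes moved from 0.03 to 0.41 and 8 members were called. The median log2 fold change of the 9 members was 0.74 on the CPM scale, against 0.03 over all genes. Igfbp2 did not reach the filter of a mean of 0.5 FPKM (reads scaled by gene length and library total) and is described by its values. Every MI library was above every sham library for 2 of the 9, Igfbp6 and Insr, and this held for 20.9% of all genes. Cell composition moved with the same contrast, as the marker sums above show, and its part in the changes of the members was not tested. Esr1 moved with it too, from 5.52 to 8.36 CPM in sham to 331 in fl/fl-MI 2 and 707 and 402 in CKO-MI. Only fl/fl-MI 1, with 7.75 CPM, was at the sham level among the MI libraries. If Esr1 marks the transgene, its presence and MI cannot be fully told apart in this contrast.

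**Figure D1:**
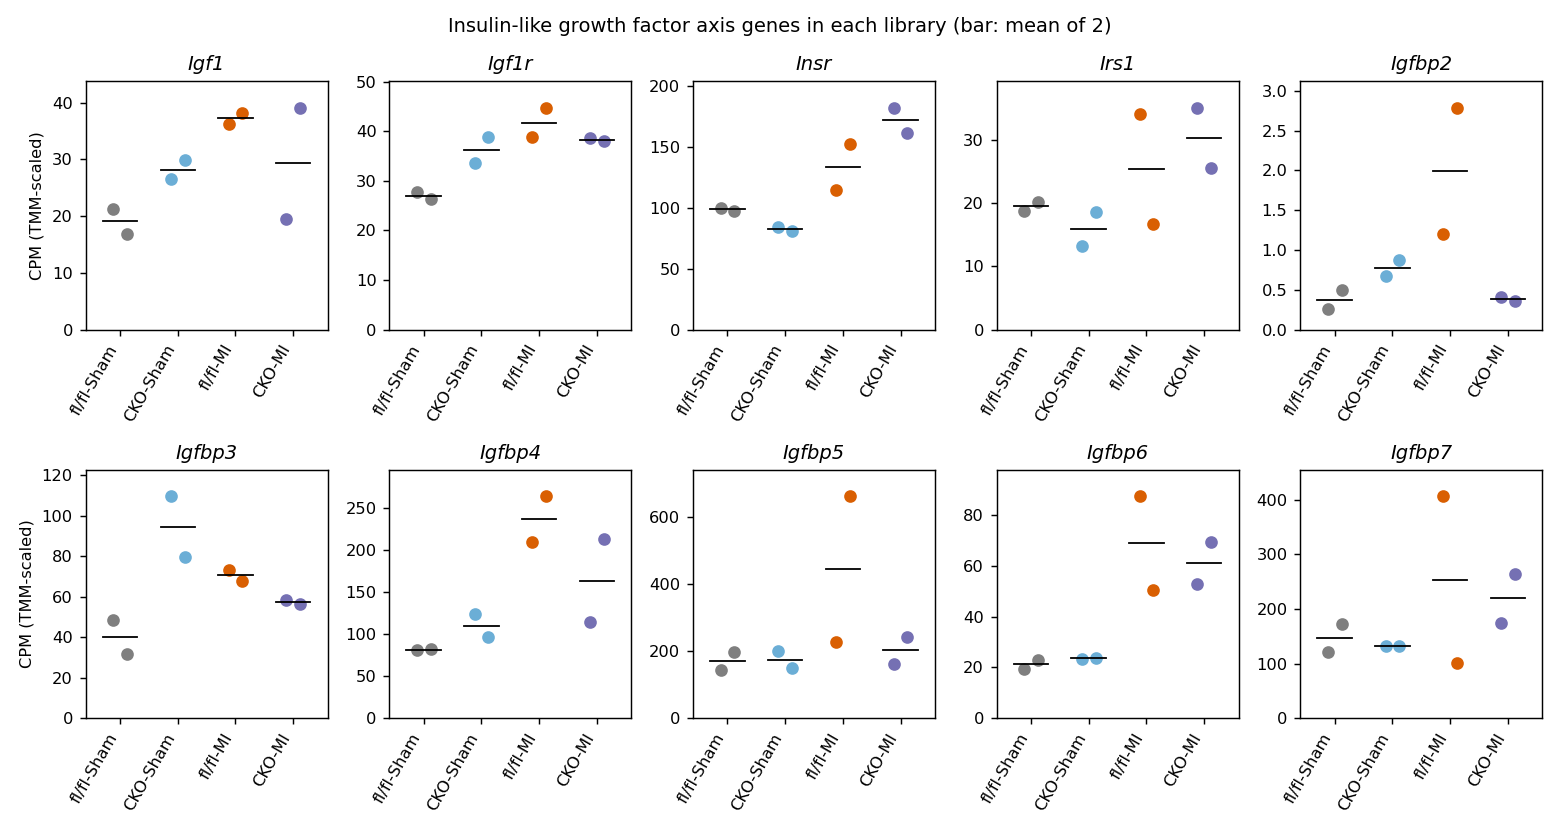
CPM (linear axis from 0) of the 10 members in each of the 8 libraries, one point per library, with a bar at the mean of the 2 libraries of a group. Igfbp6 and Insr lie higher in all 4 MI libraries than in any sham library, and the points of fl/fl-MI lie far apart for Igfbp5 and Igfbp7.

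Igfbp6 (ENSMUSG00000023046, chr15:102144362-102149511, + strand) encodes a binding protein with a preference for IGF-II. It had 19.5 and 23.1 CPM in fl/fl-Sham, 23.2 and 23.8 in CKO-Sham, 87.2 and 50.6 in fl/fl-MI, and 52.8 and 69.2 in CKO-MI. The sham libraries lay within a narrow band and every MI library was above them, the lowest being fl/fl-MI 2. The log2 fold change was 1.53 ± 0.19 (SE), a 2.90-fold increase (edgeR, adjusted p = 0.00165), the largest of the members and 476th of 14028 genes counted from the highest log2 fold change. Igfbp6 was also called in fl/fl alone (1.69 ± 0.27, edgeR adjusted p = 0.0104) and in CKO alone (1.37 ± 0.27, adjusted p = 0.0151). Leaving out single libraries kept the call for both genotypes averaged, with log2 fold changes between 1.29 and 1.71. Among the MI libraries Igfbp6 had the same order as the summed fibroblast markers, 6426 CPM in fl/fl-MI 1, 5443 in CKO-MI 2, 3294 in CKO-MI 1 and 2223 in fl/fl-MI 2. This order is also the reverse of that of the summed cardiomyocyte markers. The part of fibroblast or cardiomyocyte content in the rise of Igfbp6 was not tested.

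Igfbp4 (ENSMUSG00000017493, chr11:99041244-99054392, + strand), whose product inhibits IGF action until it is cleaved by the protease PAPP-A, had 80.7 and 81.9 CPM in fl/fl-Sham, 124 and 96.0 in CKO-Sham, 209 and 264 in fl/fl-MI, and 114 and 213 in CKO-MI. The lower CKO-MI library lay below the higher CKO-Sham library, so the MI and sham libraries overlapped. It rose by 1.06 ± 0.21 on the log2 scale, or 2.08-fold (edgeR, adjusted p = 0.0087), with 0.78 to 1.22 when single libraries were left out. By genotype it was 1.54 ± 0.31 in fl/fl (edgeR, adjusted p = 0.0184) and 0.57 ± 0.30 in CKO (adjusted p = 0.201), and the interaction of -0.97 ± 0.42 did not pass (adjusted p = 0.598). In all, 2 members (Igfbp4 and Igfbp6) were called with at least a 2-fold increase, a call met by 7.28% of all genes.

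The promoters of these 2 genes are shown because they belong to the members with the largest called increases. They are the 250 bases before the RefSeq start (GRCm38.p6), read on the coding strand, with motif matches on either strand in capitals. For the element bound by the general initiation machinery the letters searched were TATAAA. For the Sp1-type element of many housekeeping promoters they were GGGCGG. For the element bound by the NF-Y factors they were CCAAT. For the element bound by Fos and Jun dimers, known as AP-1, they were TGANTCA. For Igfbp4 (chr11:99040994-99041243, + strand) the RefSeq start equals the gene start in the table, and for Igfbp6 (chr15:102143936-102144185, + strand) it lies 176 bases before it.
Igfbp4: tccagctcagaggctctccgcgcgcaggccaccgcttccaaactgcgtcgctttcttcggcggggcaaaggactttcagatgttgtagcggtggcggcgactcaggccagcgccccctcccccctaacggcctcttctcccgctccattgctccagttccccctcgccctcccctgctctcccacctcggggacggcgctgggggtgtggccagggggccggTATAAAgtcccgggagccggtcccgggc
Igfbp6: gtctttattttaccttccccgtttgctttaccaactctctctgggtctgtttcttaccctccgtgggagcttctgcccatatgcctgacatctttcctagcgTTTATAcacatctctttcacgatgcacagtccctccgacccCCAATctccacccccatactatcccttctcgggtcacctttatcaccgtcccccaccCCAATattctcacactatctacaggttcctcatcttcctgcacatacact
Igfbp4 holds 1 TATAAA close to its start and none of the other motifs. Igfbp6 holds 1 TATAAA, on the reverse strand, and 2 CCAAT, and no GGGCGG. Their GC content differed, 69.2% against 49.6%. Of 32851 RefSeq promoters of this length, 12.4% hold the first of these motifs, 32.7% the Sp1-type one, 33.8% the NF-Y one and 6.75% that of AP-1, so none of the matches is rare. The 2 promoters have in common only the TATAAA letters among the motifs searched.

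Among the receptors, Insr (ENSMUSG00000005534, chr8:3122061-3279617, - strand), the insulin receptor, had 100.1 and 97.8 CPM in fl/fl-Sham, 84.6 and 81.1 in CKO-Sham, 115 and 153 in fl/fl-MI, and 182 and 162 in CKO-MI. All MI libraries lay above all sham libraries. Its increase of 0.74 ± 0.12 (log2) amounted to 1.68-fold (edgeR, adjusted p = 0.00403), and it was between 0.64 and 0.82 without single libraries, called each time. It was called in CKO (1.06 ± 0.17, edgeR adjusted p = 0.00883) and not in fl/fl (0.43 ± 0.17, adjusted p = 0.115), and the difference between them was 0.62 ± 0.24 (adjusted p = 0.574).

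Igf1r (ENSMUSG00000005533, chr7:67952827-68233668, + strand), the IGF-I receptor, had 27.7 and 26.3 CPM in fl/fl-Sham, 33.5 and 38.9 in CKO-Sham, 38.8 and 44.8 in fl/fl-MI, and 38.7 and 38.0 in CKO-MI. The higher CKO-Sham library lay within the range of the MI libraries. Igf1r rose by 0.36 ± 0.10 on the log2 scale, or 1.28-fold (edgeR, adjusted p = 0.0256). This call was lost when any of 5 libraries was left out, with adjusted p from 0.0686 to 0.103. These were both fl/fl-Sham libraries, CKO-Sham 1 and both CKO-MI libraries. By genotype the change was 0.63 ± 0.14 in fl/fl (edgeR, adjusted p = 0.0255) and 0.08 ± 0.14 in CKO (adjusted p = 0.69), with an interaction of -0.55 ± 0.20 (adjusted p = 0.574).

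The ligand Igf1 (ENSMUSG00000020053, chr10:87858265-87937042, + strand) had 21.2 and 16.9 CPM in fl/fl-Sham, 26.5 and 29.9 in CKO-Sham, 36.2 and 38.3 in fl/fl-MI, and 19.5 and 39.1 in CKO-MI. Of the MI libraries, 3 were above every sham library, and CKO-MI 1 lay among the sham libraries. CKO-MI 1 also had the lowest sum of 7 macrophage markers, 407 CPM, against 426 to 492 in sham and 688 to 1065 in the other MI libraries. That sum was highest in fl/fl-MI 1, while Igf1 was highest in CKO-MI 2. After MI 2 of these markers were called higher (edgeR), and the part of macrophage content in Igf1 was not tested. The log2 fold change of Igf1 was 0.51 ± 0.21 and did not pass (edgeR, adjusted p = 0.0984). Without CKO-MI 1 it was 0.69, and without CKO-MI 2, the highest library, it was 0.20.

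Irs1 (ENSMUSG00000055980, chr1:82233101-82291416, - strand), which couples both receptors to PI3K, had 18.8 and 20.2 CPM in fl/fl-Sham, 13.2 and 18.5 in CKO-Sham, 34.1 and 16.7 in fl/fl-MI, and 35.1 and 25.5 in CKO-MI. The library labelled fl/fl-MI 2 lay within the sham range and the other MI libraries lay above it. Its log2 fold change was 0.66 ± 0.25 (edgeR, adjusted p = 0.0698). It was 0.87 when fl/fl-MI 2 was left out and 0.34 when fl/fl-MI 1 was. Irs1 was called by DESeq2 (adjusted p = 0.034) and by edgeR without the filter on low values (adjusted p = 0.0374).

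Igfbp5 (ENSMUSG00000026185, chr1:72857932-72874884, - strand), a matrix-bound IGF carrier, had 145 and 198 CPM in fl/fl-Sham, 199.7 and 148 in CKO-Sham, 228 and 660 in fl/fl-MI, and 162 and 242 in CKO-MI. The single value of fl/fl-MI 2 was the highest by far, and CKO-MI 1 lay among the sham libraries. The log2 fold change was 0.80 ± 0.34 (edgeR, adjusted p = 0.101), fell to 0.31 without fl/fl-MI 2 and rose to 1.06 without fl/fl-MI 1. Igfbp5 too was called by DESeq2 (adjusted p = 0.0365) and by edgeR without the filter (adjusted p = 0.046).

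Igfbp7 (ENSMUSG00000036256, chr5:77349240-77408041, - strand), a matrix protein of vessels and fibroblasts, split the same pair the other way. It had 122 and 172 CPM in fl/fl-Sham, 132 and 132 in CKO-Sham, 406 and 101 in fl/fl-MI, and 175 and 264 in CKO-MI. The library labelled fl/fl-MI 2 was the lowest of all 8 and fl/fl-MI 1 the highest. Its MI against sham difference was 0.76 ± 0.40 (log2, edgeR, adjusted p = 0.172), and it was 0.08 without fl/fl-MI 1 and 1.10 when fl/fl-MI 2 was left out. The order of the 4 MI libraries was again that of the summed fibroblast markers and the reverse of that of the summed cardiomyocyte markers. The part of cell content in these values was not tested.

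Igfbp3 (ENSMUSG00000020427, chr11:7206086-7213923, - strand), the main carrier of IGFs in serum, had 48.3 and 31.5 CPM in fl/fl-Sham, 109 and 79.5 in CKO-Sham, 73.4 and 67.6 in fl/fl-MI, and 58.4 and 56.4 in CKO-MI. The fl/fl-Sham libraries were the lowest and the CKO-Sham libraries the highest, with the MI libraries between them. With both genotypes averaged the log2 fold change was 0.05 ± 0.17 (edgeR, adjusted p = 0.826), and its sign changed when the filter or the libraries changed. It was 0.82 ± 0.24 in fl/fl (edgeR, adjusted p = 0.0533) and -0.72 ± 0.24 in CKO (adjusted p = 0.0657).

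Igfbp2 (ENSMUSG00000039323, chr1:72824503-72852474, + strand), a binding protein of fetal tissues and liver, was the lowest of the members. It had 15 and 31 counts in fl/fl-Sham, 49 and 53 in CKO-Sham, 127 and 231 in fl/fl-MI, and 35 and 35 in CKO-MI, or 0.256 to 0.872 CPM over the sham libraries and 0.361 to 2.79 CPM over those of MI. Both fl/fl-MI libraries were above all others. In a fit without the filter on low values the log2 fold change after MI was 2.44 ± 0.60 in fl/fl (edgeR, adjusted p = 0.0254) and -0.90 ± 0.58 in CKO (adjusted p = 0.458). These values rest on few read pairs, as about 4 counts stood for 1 pair. Counts divided by 4 were not fitted for Igfbp2. Igfbp2 lies next to Igfbp5 on chromosome 1, with 5457 bases between the ends of the 2 genes, which face each other on opposite strands. In both, fl/fl-MI 2 was the highest library.

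Taken by labelled genotype, 3 of 9 members were called after MI in fl/fl (Igf1r, Igfbp4 and Igfbp6), where 18.5% of all genes were called and 10.1% were higher, and 2 in CKO (Insr and Igfbp6), where 24.7% were called and 12.8% were higher. These counts were unstable. In fl/fl none was called when the fit held only the 4 libraries compared or when either fl/fl-Sham library was left out, fits that called 119 to 199 of all 14028 genes. In CKO none was called without either CKO-Sham library, where 25 and 714 of all genes were called, and 5 were called without either fl/fl-MI library, where 5751 and 5793 were. The members' counts thus moved with those of all genes.

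**Figure D2:**
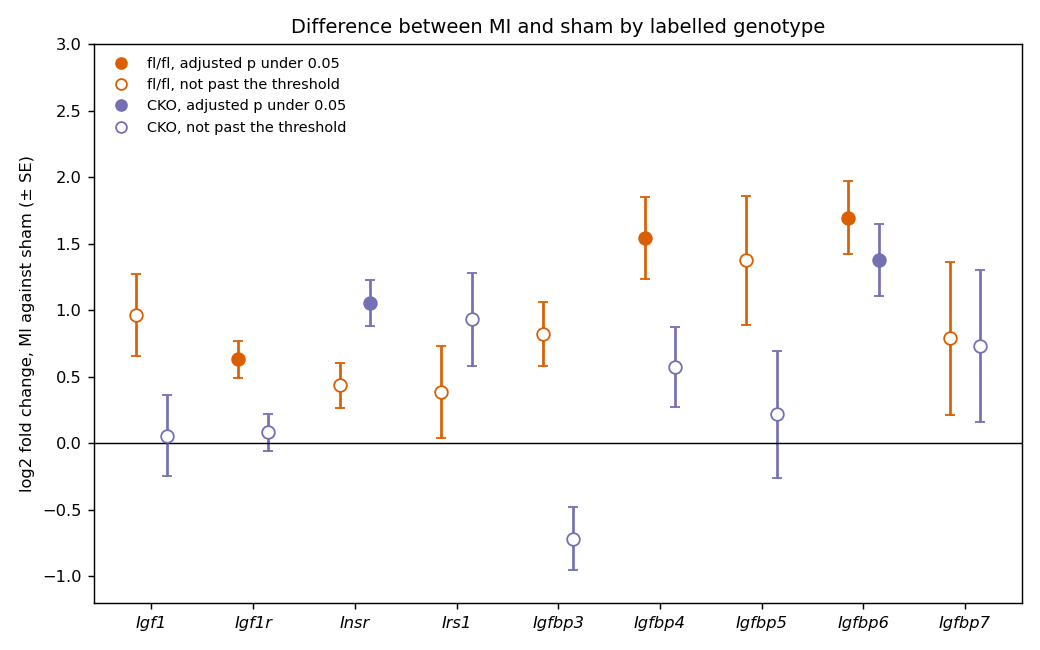
Log2 fold change between MI and sham (y axis, bars ± SE from the edgeR fit) for the 9 members tested, in fl/fl and in CKO as labelled, filled where the adjusted p was under 0.05. Igfbp6 is filled in both, Igfbp3 has opposite signs, and no difference between the genotypes passed the test of the interaction.

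No member was called between the labelled genotypes. In sham, 0 of 9 were called (edgeR) and 2 had an unadjusted p under 0.05, Igfbp3 and Igf1r, while 0.00713% of all genes were called and 3.89% had such a p. The CKO-Sham level of Igfbp3 was 2.37-fold that of fl/fl-Sham (log2 1.24 ± 0.24, adjusted p = 1), and DESeq2 called it (1.25, adjusted p = 0.00268) with 0.242% of all genes. Igf1r was 0.42 ± 0.14 higher on the log2 scale (edgeR, adjusted p = 1). In MI, 0 of 9 were called by edgeR or DESeq2 and 0 at an unadjusted p under 0.05, where 0 of all genes were called by edgeR, 1.48% by DESeq2, and 8.31% had such a p. The largest difference among the 9 was in Igfbp5, -1.14 ± 0.48 in CKO-MI against fl/fl-MI (edgeR, adjusted p = 0.599). It was -0.17 without fl/fl-MI 2 and -1.69 without fl/fl-MI 1. Igfbp2, which the filter left out, differed more in the fit without it, by -2.33 ± 0.59 (edgeR, adjusted p = 0.309). For the interaction 0 of 9 were called by edgeR, 3 had an unadjusted p under 0.05 (Igfbp3, Igf1r and Insr), and DESeq2 called Igfbp3. Over all genes the shares were 0 by edgeR, 8.49% unadjusted and 0.934% by DESeq2. Since the Esr1 values went against the labels of 3 libraries, these comparisons may not be of the genotypes they are named for.

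Per length, Igfbp7 was the most abundant member in every library but one. Igfbp7 had 77.6 to 117 FPKM in sham and 90.8 to 429 in MI libraries. The other binding proteins except Igfbp2 ranged from 8.30 to 28.1 FPKM in sham. Igf1, Igf1r and Irs1 were near each other, with 1.16 to 2.36 FPKM in sham and 1.98 to 5.00 FPKM in MI. Insr lay between, with 4.62 to 5.86 FPKM in sham and 10.7 to 14.9 in MI. FPKM values are relative to a library total of which mitochondrially encoded genes took 43.1 to 46.4% in sham and 19.9 to 24.2% in MI libraries, so no change after MI is read from FPKM levels.

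The summed FPKM of Igfbp2 to Igfbp7 shows how the pool of binding protein transcripts was made up. Igfbp7 held 57.2 and 63.3% of the pool in fl/fl-Sham, 48.2 and 53.7% in CKO-Sham, 64.1 and 26.0% in fl/fl-MI, and 54.8 and 56.4% in CKO-MI. It was the largest part in 7 libraries, and in fl/fl-MI 2 Igfbp5 took its place with 34.2%. Igfbp6 held 9.2 to 10.6% in sham and 14.1 to 18.0% in MI libraries, without overlap. Igfbp3 went from 4.48 to 15.4% in sham to 4.48 to 7.08% in MI, and Igfbp2 never exceeded 0.466%.

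**Figure D3:**
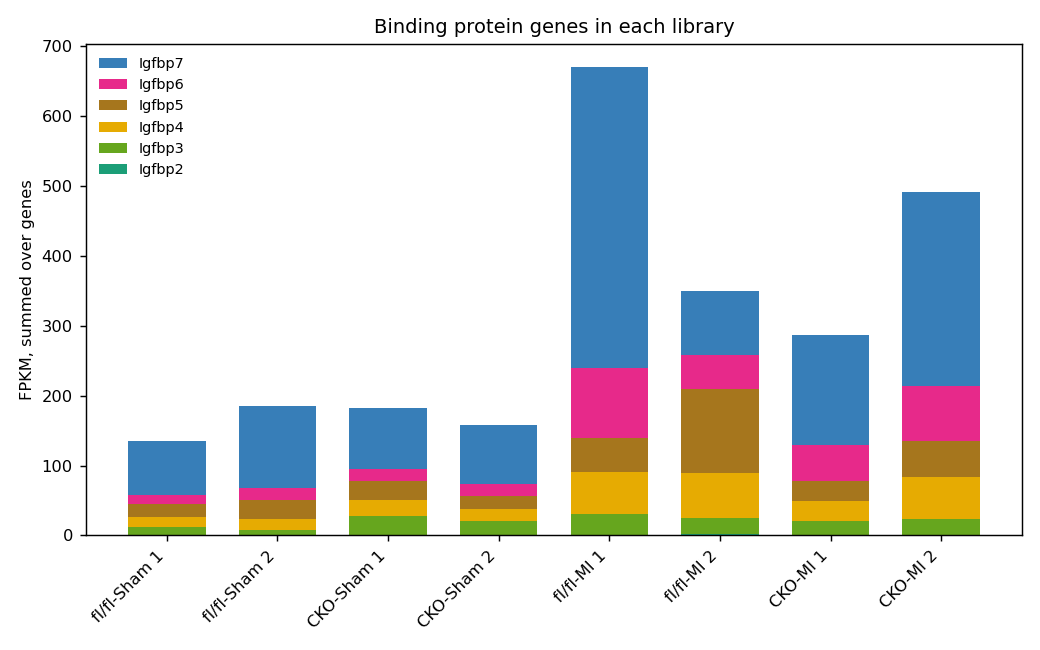
FPKM of Igfbp2 to Igfbp7 stacked for each library (linear axis from 0). Igfbp7 is the largest part in every library except fl/fl-MI 2, where Igfbp5 is larger, and the height of the bars follows the library total used for FPKM as well as these genes.

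Transcript values were compared for the members with at least 2 transcripts of 0.5 FPKM or more, as a share of the gene's summed transcript FPKM. These shares are estimates of the quantifier from short reads. None of 3 transcripts compared passed between MI and sham (exact two-sided permutation test of 4 against 4 libraries, which cannot go below 0.0286). A single transcript at that lowest p could not pass after adjustment over 3, so the test says little of a change in 1 gene. That exact permutation test gave p = 0.314 for Igfbp7, p = 0.143 for Insr and p = 0.771 for Igfbp3, with adjusted values of 0.471, 0.429 and 0.771.

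The share that varied most was that of the Igfbp7 transcript with an added exon. The 2 transcripts of Igfbp7, of 1200 and 1116 bases, differ at their ends and by an exon of 93 bases, chr5:77401487-77401579 on the - strand, exon 2 of 6, a wholly coding stretch that adds 31 codons in frame. It is shown here, from the reference transcripts of GENCODE M21 (GRCm38), in capitals between 12 bases of each neighbouring exon.
Igfbp7 added exon: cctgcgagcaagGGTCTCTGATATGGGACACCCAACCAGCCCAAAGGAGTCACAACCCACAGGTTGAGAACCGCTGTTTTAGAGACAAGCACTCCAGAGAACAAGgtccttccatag
The transcript holding it made up 48.4 and 0.623% in fl/fl-Sham, 9.92 and 59.2% in CKO-Sham, 7.53 and 3.95% in fl/fl-MI, and 7.39 and 8.38% in CKO-MI. One library of each sham group was high and the other low, so the spread lay within the groups, and the MI libraries were alike. The mean was 29.5% in sham and 6.81% in MI.

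Igf1 transcripts differ in the part that encodes the C-terminal E peptide of the IGF-I precursor, which is cut off the mature hormone. The 52-base exon chr10:87915298-87915349 on the + strand, exon 4 of 5, shifts the reading frame of the last exon, whose coding part is then 23 bases in place of 57. It is the exon that the E peptide forms turn on, and is shown in capitals between 12 bases of each neighbouring exon.
Igf1 52-base exon: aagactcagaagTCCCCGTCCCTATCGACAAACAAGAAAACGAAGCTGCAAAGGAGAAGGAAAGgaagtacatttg
The 4 of 7 transcripts with an exon starting there held 12.6 and 13.3% of Igf1 in fl/fl-Sham, 7.08 and 10.6% in CKO-Sham, 7.77 and 10.5% in fl/fl-MI, and 7.56 and 7.15% in CKO-MI. The form without it was the main form in all 8 libraries, and the ranges of sham and MI overlapped. The transcripts with the upstream leader exon held 94.1 to 96.7%.

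**Figure D4:**
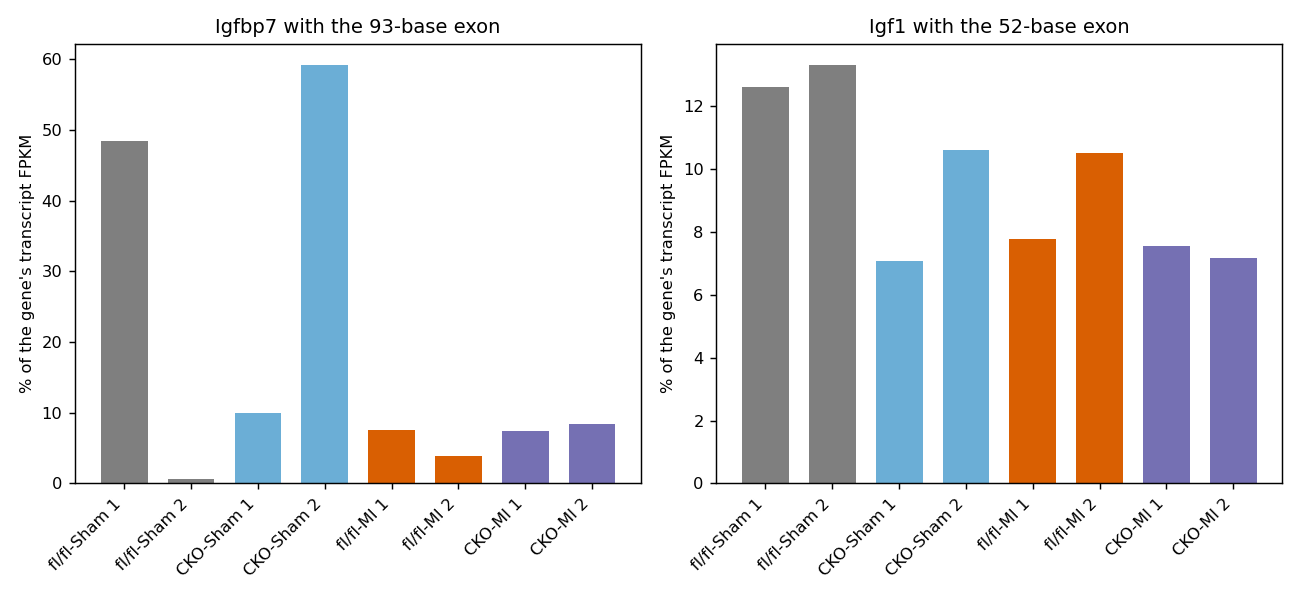
Share of the gene's summed transcript FPKM (%, linear axis from 0, scales differ) held by the Igfbp7 transcript with the 93-base exon and by Igf1 transcripts with the 52-base exon, one bar per library. The Igfbp7 share is 48.4 and 59.2% in 1 library of each sham group and under 10% in the other 6, and the Igf1 share stays between 7.08 and 13.3%.

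Other genes of the pathway were taken from 4 lists. Of 48 tested, 22 rose and 3 fell after MI with both genotypes averaged (edgeR), with a median log2 fold change of 0.37. Over all genes 40.4% were called, 22% higher and 18.3% lower, a split that depends on the scaling. These shares also stand beside the counts of each list below. Among 14 adaptors and dampers 9 rose and none fell. The largest were Enpp1, a pyrophosphatase that inhibits the insulin receptor (2.66 ± 0.50, adjusted p = 0.00658), Irs2, the second main IRS adaptor (2.24 ± 0.40, adjusted p = 0.00552), and Socs3, a feedback inhibitor of cytokine signalling (2.10 ± 0.67, adjusted p = 0.0431). Irs2 had 5.27 to 9.79 CPM in sham and 11.3 to 85.7 CPM in MI libraries, without overlap. Socs3 had 244 CPM in fl/fl-MI 2 against 18.0 to 23.3 CPM in the other MI libraries. Its change was 0.67 without fl/fl-MI 2, and its call was lost when any other library but fl/fl-MI 1 was left out. Grb10, an adaptor that dampens both receptors, was not called (0.13 ± 0.23, edgeR adjusted p = 0.681), with 71.0 to 80.1 CPM in sham and 47.3 to 106 in MI libraries. Its change was 0.35 without fl/fl-MI 2.

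Of 25 genes of the PI3K, Akt and mTOR list 11 rose and 3 fell. Pdpk1, the kinase that activates Akt, rose by 1.16 ± 0.11 (edgeR, adjusted p = 0.000746), Foxo3, a transcription factor that Akt restrains, by 1.15 ± 0.15 (adjusted p = 0.00204), and Gsk3b, a kinase that Akt inhibits, by 0.93 ± 0.11 (adjusted p = 0.00122). Those that fell were the PI3K regulatory subunits Pik3r3 (-0.56 ± 0.10, edgeR adjusted p = 0.00602) and Pik3r2 (-0.40 ± 0.11, adjusted p = 0.0281), and Rictor, the defining subunit of mTORC2 (-0.53 ± 0.12, adjusted p = 0.0117). On log2(TPM + 1) all 3 were above 0, at 0.49, 0.67 and 0.45, but below the median of all genes there, 0.91. Pik3r2 lost its call without any one of 5 libraries, with adjusted p from 0.0629 to 0.103, and Rictor without fl/fl-Sham 1 (adjusted p = 0.0507). The list thus held kinases that carry the signal beside factors the signal restrains, and transcript levels give no reading of their activity.

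Of 6 ligand, receptor and growth hormone genes 2 rose, Igf2r, which clears IGF-II (1.02 ± 0.12, edgeR adjusted p = 0.00116), and Jak2, the kinase of the growth hormone receptor (0.40 ± 0.09, adjusted p = 0.0117). Jak2 lost its call without fl/fl-Sham 2 (adjusted p = 0.0591) or CKO-Sham 1 (adjusted p = 0.0549). Igf2, the second ligand, varied more across MI libraries than any member, 40.9-fold against at most 7.73-fold in Igfbp2, with 33.1 to 124 CPM in sham. The fl/fl-MI libraries had 6.74 and 244 CPM of Igf2 and the CKO-MI libraries 5.97 and 9.29. On the log2 scale it differed by -0.92 ± 0.85 (edgeR, adjusted p = 0.423). The single high value was again in fl/fl-MI 2, and the other 3 MI libraries lay below all sham libraries. Without fl/fl-MI 2 the log2 fold change of Igf2 was -3.03. On the list of other binding proteins, their proteases and related genes only 3 were tested, Htra1, Stc1 and Stc2. None of them was called (edgeR, 1 at an unadjusted p under 0.05). Pappa, which encodes PAPP-A, Pappa2 and Igfbpl1 did not reach the filter and were not tested. Ins1, Ins2 and Igfbp1 were not analysed here.

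The genes whose profile over the 8 libraries was most like that of a member were found by the root mean square difference of log2 CPM centred on each gene's mean. For Igfbp6 they were Sulf1 (0.12), a heparan sulfate sulfatase, Ccdc80 (0.13) and Ltbp3 (0.13), both matrix proteins, Tns3 (0.14) and Clec4d (0.14). For Igf1 they were the noncoding RNA Meg3 (0.16), Bst1 (0.18), the noncoding RNA Rian (0.20), Spon1 (0.20) and Slc2a10 (0.21). Meg3 showed the same low value in CKO-MI 1, 24.1 CPM against 43.2 to 46.3 CPM in the other MI libraries. The likeness is over 8 libraries that share differences in cell content, and says nothing of shared control.

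**Figure D5:**
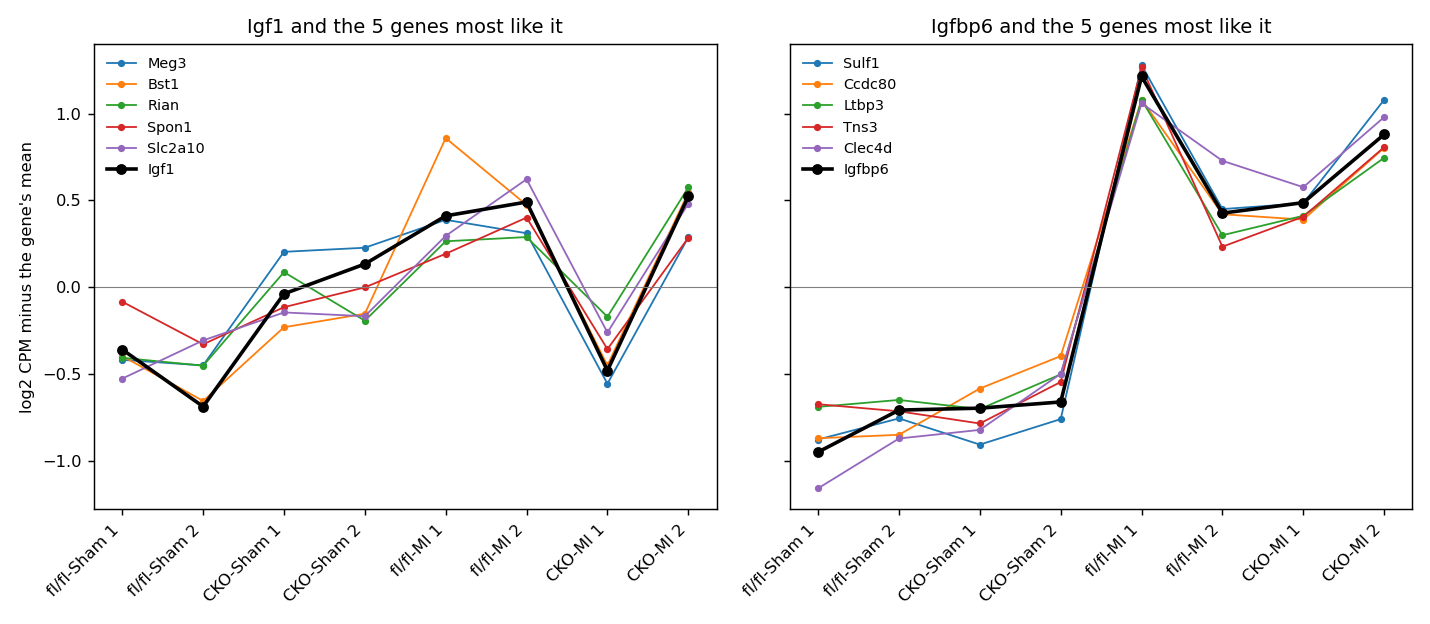
Log2 CPM minus the gene's mean over the 8 libraries (y axis) for Igf1 and for Igfbp6 (black) and the 5 tested genes with the smallest root mean square difference from each, with lines joining the values of 1 gene. The Igfbp6 group steps up between sham and MI, and the Igf1 group is low in CKO-MI 1.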

How the data were processed

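The authors sequenced poly(A) RNA as paired 150-base reads, and their processing notes name cutadapt 1.9 and FastQC. The aligner, counter and annotation are not given in the sources used here. The deposited counts and the deposited FPKM, both per gene and per transcript, were used as given. Gene identifiers matched GENCODE M21 (GRCm38) in 99.7% of cases, and the 10 members had equal coordinates there. Samples were grouped by their titles.

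Genes with a mean of at least 0.5 FPKM (14028) were fitted with 1 mean per group in edgeR 4.0.16 (R 4.3.3, TMM, glmQLFit and glmQLFTest) on the deposited counts, and p-values were adjusted over all of them. SE is the absolute log2 fold change divided by the square root of F. limma 3.58.1 and DESeq2 1.42.0 served as alternatives. Total counts were 73821747 to 88117573 per library. Because about 4 counts stand for 1 read pair, the counts overstate the depth, and counts divided by 4 were an alternative. Members, pathway lists and markers were chosen with earlier results of these data known. Named pathway genes are up to 3 per direction and list with the largest called change, plus Igf2 and Grb10. Esr1 falls outside that rule. Transcript shares use the sum of a gene's transcript FPKM as denominator, since the gene value can lie below it. Promoter sequences came from RefSeq (GRCm38.p6), which matched 9 of 10 members.

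On data simulated for MI against sham in both genotypes (14028 genes), edgeR recovered 61 of 100 genes changed 2-fold and 85 of 100 changed 4-fold, with 16 false calls among 162. DESeq2 recovered 88 and 91 of them with 66 false calls among 245, so calls by DESeq2 alone are to be read with that in mind. The simulation changed a far smaller share of genes than the 40.4% called in the data. Replicate numbers were tested for pairing and did not pair the samples.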

Additional observations from a re-analysis of the deposited data

Results flagged for a closer look

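The response to MI ran in opposite directions in the labelled genotypes for 2 members, with no overlap of MI and sham libraries in either genotype. Such separation was common among the 14028 genes tested, with 4554 higher and 4134 lower in fl/fl and 5110 higher and 5016 lower in CKO. How many of all genes were separated in opposite directions was not counted. For Igfbp3 both fl/fl-MI libraries were above both fl/fl-Sham libraries and both CKO-MI libraries below both CKO-Sham libraries. The interaction of genotype and MI was -1.54 ± 0.34 on the log2 scale (edgeR, adjusted p = 0.56). Adjusted p over the alternatives of this value ranged from 0.0124 (DESeq2) to 1. For Igfbp2 the interaction was -3.35 ± 0.83 in the fit without a filter on low values (edgeR, adjusted p = 0.445). Neither passed after adjustment over all genes. The CKO-Sham libraries, which enter both values, had Esr1 at the level of fl/fl-Sham, so the labelled genotype cannot be relied on here.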

How the results depend on the processing

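Igfbp6, Igfbp4 and Insr were called after MI with both genotypes averaged under every alternative that adjusted p over all genes, and Igf1r was the only one of the 4 that was not. Of the 9 members tested in that comparison, 4 were called, but 6 with DESeq2, 6 without a filter (Igfbp5 and Irs1 added in each), 8 on log2(FPKM + 1), 8 on log2(FPKM + 0.1), 9 on log2(TPM + 1), and 2 with an unadjusted p under 0.05 and a 2-fold change, and 3 to 6 when single libraries were left out. The median of all genes was 0.41, 0.56 and 0.91 on those 3 scales, so values there are read against it. Relative to it Igfbp6 was 1.59 and Igf1r 0.20 on log2(FPKM + 1). Over all 14028 genes 5663 were called, and 6486 with DESeq2. On log2(FPKM + 1), log2(FPKM + 0.1) and log2(TPM + 1) 7864, 7954 and 11033 of all genes were called. Without a filter 5688 of 33249 were called, and 2244 of 14028 with the unadjusted p and 2-fold change. With a mean of at least 5 FPKM 2906 of 5524 were.

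In fl/fl the count of 3 became 6 with DESeq2, 7 on either FPKM scale, 8 on TPM, 7 without a filter, 0 with only the libraries compared, and 0 to 6 without single libraries. In CKO the count of 2 became 4 with DESeq2, 5 on either FPKM scale, 8 on TPM, 5 with only the libraries compared, and 0 to 5 without single libraries. Of all 14028 genes, 2596 were called in fl/fl, 4038 with DESeq2, 5255 and 5437 on the FPKM scales and 9404 on TPM. Without a filter 2660 of 33249 were called in fl/fl, and 199 of 14028 with only the libraries compared. In CKO 3467 were called, 4726 with DESeq2, 5164 and 5390 on FPKM, 8825 on TPM and 4835 with only the libraries compared. Between genotypes in sham 34 of all genes were called with DESeq2, 165 with only the libraries compared and 125 with the unadjusted p and 2-fold change. There the count of 0 members became 1 in each. In MI it was 0 to 1 without single libraries, and for the interaction 1 with DESeq2 and 1 with the unadjusted p and 2-fold change. The 25 pathway genes became 40 on either FPKM scale, 47 on TPM, 11 with a mean of at least 5 FPKM, where fewer genes were tested, 8 with the unadjusted p and 2-fold change, and 12 to 29 without single libraries.

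Signs of small changes turned. With both genotypes averaged Igfbp3 was -0.023 with a mean of at least 5 FPKM, -0.072 with sham and MI as 2 groups, an alternative chosen after seeing the data, and -0.086 to 0.22 without single libraries. Igf2 was 0.020 with 2 groups, and Grb10 -0.21 to 0.35 without single libraries. On log2(FPKM + 1), log2(FPKM + 0.1) and log2(TPM + 1), Pik3r2 was 0.14, 0.16 and 0.67 and Rictor 0.022, 0.030 and 0.45, and on log2(TPM + 1) Pik3r3 was 0.49 and Igfbp3 in CKO 0.42. All of these lay below the median of all genes on their scale, 0.41, 0.56 and 0.91, or 0.895 in CKO on log2(TPM + 1). Relative to that median these genes did not turn. On the same 3 scales Igfbp7 was 0.076, 0.078 and 0.067 between genotypes in MI and 0.21, 0.22 and 0.22 for the interaction. Without single libraries, changes after MI in fl/fl were -0.57 to 1.47 for Igfbp7 and -0.25 to 0.81 for Irs1, and in CKO -0.53 to 0.45 for Igf1, -0.022 to 0.19 for Igf1r and -0.10 to 0.46 for Igfbp5. Between genotypes they were -0.21 to 0.27 for Igfbp5 and -0.38 to 0.12 for Igfbp7 in sham, and -0.90 to 0.083 for Igf1, -0.52 to 0.28 for Igfbp6, -0.89 to 1.13 for Igfbp7 and -0.17 to 0.88 for Irs1 in MI. The interaction was -0.66 to 0.14 for Igfbp6 and -0.73 to 1.29 for Igfbp7. Apart from the scaling, the cause was not tested.

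Samples with the same replicate number shared only a number, as their deviations correlated between -0.20 and 0.05. With the replicate block 4 members were called for both genotypes averaged, 4 in fl/fl, 2 in CKO and 0 in the other comparisons, 22 pathway genes were called, and the interaction of Igfbp7 was 0.038.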
